A study of Homo sapiens with 8 samples.

Results

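The vacuolar proton pump, or V-ATPase, and the lysosomal proteins through which mTORC1 and the TFEB family of transcription factors read nutrients were described as a set of 43 genes. The members were chosen by symbol from knowledge of the machinery: 17 encode subunits or accessory proteins of the pump, and 26 encode nutrient-sensing complexes, mTORC1 subunits and the factors TFEB, TFE3 and MITF. All 43 matched an ID among the 38010 Ensembl gene IDs of the count table, and 42 passed the filter on low counts. RNA-seq was made from confluent cultures of Ea.hy926, an established human line that arose by fusion of an umbilical vein endothelial cell with the lung carcinoma line A549. The parental line (labelled Eahy) was compared with a derivative deficient in oxidative phosphorylation (labelled Rho0, the usual name for cells that have lost mitochondrial DNA), with 4 biological replicates of each. No drug, time course or added gene is named in the labels, and the sources used here do not say how the Rho0 line was made or whether it is 1 clone. The series is about respiration, autophagy and stress resistance in quiescent cells. P-values measure the spread between cultures of 1 parental and 1 Rho0 line, so that loss of respiration cannot be told apart from any other difference between these lines.

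The V-ATPase uses ATP to pump protons into lysosomes and other compartments. Its V1 sector hydrolyses ATP in the cytosol, and its V0 sector carries the protons through the membrane. On the lysosome surface the pump binds Ragulator, which anchors the Rag GTPases. When amino acids are plentiful the Rags bring mTORC1 to the lysosome, where the GTPase RHEB activates it. GATOR1 switches off RagA and RagB, and the folliculin complex (FLCN with FNIP1 or FNIP2) acts on RagC and RagD, a step that mTORC1 needs to phosphorylate TFEB and TFE3 and hold them outside the nucleus. In the nucleus these factors bind the E-box CACGTG and its longer CLEAR form in promoters of lysosomal and V-ATPase genes.

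Libraries held 11721448 to 37203313 estimated counts. The 13 protein-coding mRNAs of mitochondrial DNA took 16.0% to 21.4% of the parental counts and far less of the Rho0 counts. They took 0.00296% to 0.00757% in 3 Rho0 libraries and 0.149% in replicate 2, which stood apart. Without that library 2 pump genes rose and 4 fell, and 4 sensing genes rose and 7 fell. Of 10 endothelial markers, 9 had a mean of at least 1 CPM, the count relative to the TMM-scaled library size, in the parental line and 8 in Rho0. Their levels differed in both directions. From parental to Rho0, mean KDR (13.8 to 130 CPM) and PECAM1 (1085 to 2116 CPM) were among those higher. Mean CDH5 (1716 to 1033 CPM) and EMCN (7.77 to 0.398 CPM) were among those lower. Markers of fibroblasts summed to 1.70 to 2.60 CPM in parental and 1.46 to 2.32 CPM in Rho0 libraries, with 1 of 7 at 0 in each line. Those of leukocytes summed to 96.5 to 119 and 122 to 141 CPM, mostly from the lysosomal protein gene CD68, and the T-cell gene CD3E was at 0. Those of osteoclasts and macrophages, which use specialised pump isoforms, summed to 55.7 to 60.2 and 23.6 to 29.4 CPM, mostly from ACP5, and DCSTAMP was at 0. Markers of lung carcinoma epithelium, the other parent of the hybrid, summed to 2609.8 to 2881 CPM in parental and 1297 to 2081 CPM in Rho0 libraries, mostly from KRT7, KRT8 and KRT18. Mean KRT8 (888 to 385 CPM) and KRT18 (899 to 487 CPM) were lower in Rho0, and KRT7 (912 and 829 CPM) overlapped. Of the low markers, EPCAM was higher (0.428 to 0.951 CPM) and SFTPB lower (2.97 to 1.42 CPM). The part of these marker differences in the results was not tested. Among the 43 members, Rho0 replicate 4 was the lowest Rho0 library for 22 and the highest for 14, more often at an end than any other library.

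Both the pump and the sensing machinery held genes that rose and genes that fell in Rho0. Of the 17 pump genes, 3 rose and 4 fell, and of the 25 sensing genes tested, 4 rose and 8 fell (edgeR quasi-likelihood test, adjusted p of 0.05 over 15184 genes). In all genes tested, 54.4% were called, 29.0% higher and 25.4% lower, and the shares called of the pump (41.2%) and of the sensing genes (48.0%) were below that background. The median log2 fold change of Rho0 over parental, called the log2 change from here on, was 0.01 for the pump and -0.00 for the sensing genes, beside 0.05 for all genes tested. The largest rises were those of RPTOR (1.73-fold), FLCN (1.65-fold), SLC38A9 (1.62-fold) and FNIP1 (1.55-fold), all among the sensing genes. The largest falls were those of the pump genes ATP6V0E2 (-0.71 on the log2 scale) and ATP6V0D1 (-0.59), the Ragulator gene LAMTOR1 (-0.59) and FNIP2 (-0.55). The parental and Rho0 libraries did not overlap for 18 of the 42 members, against 50.9% of all genes tested. The count of pump genes that rose was 1 without parental replicate 3 or without Rho0 replicate 3, and 5 without Rho0 replicate 1. That of sensing genes that rose was 6 without Rho0 replicate 4. In bulk RNA of a culture, a gene that each cell makes less of and a gene that fewer cells make cannot be told apart.

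The falls depended on whether TMM or library size alone set the scale. TMM, the scaling used here, sets libraries by the bulk of their genes, and the values above are relative to it. Dividing by library size alone moved the median of all genes from 0.05 to 0.44. That size includes the mitochondrial mRNAs, 16.0% to 21.4% of the parental counts and far less of the Rho0 counts. With that scaling 13 pump genes were called higher and 1 (ATP6V0E2) lower, and 13 sensing genes were called higher and 0 lower. Of all genes 8572 were called higher and 1540 lower, against 4399 and 3858 with TMM. A library size without mitochondrial genes, also without TMM, was an alternative added after seeing the data. It put the median of all genes at 0.15, with 6 pump genes higher and 4 lower and 7 sensing genes higher and 5 lower. With TMM on totals without mitochondrial genes, all 42 members kept their call or lack of one.

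**Figure D1:**
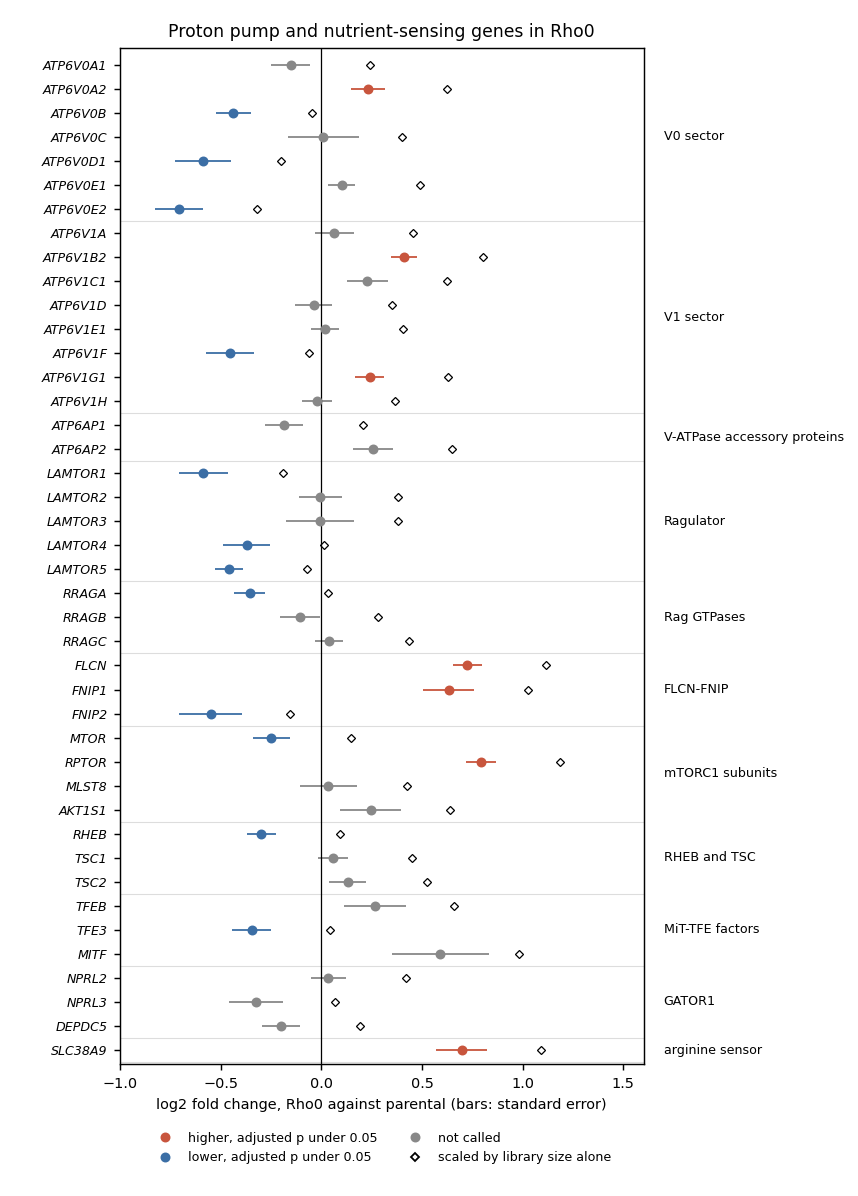
Log2 fold change of each of the 42 members tested, Rho0 against parental, with bars of 1 standard error, grouped by complex. Filled points are the TMM-scaled fit and open diamonds the fit scaled by library size alone, which lie to the right of the filled points by about the shift of all genes. RPTOR, FLCN, SLC38A9 and FNIP1 lie farthest to the right and ATP6V0E2 farthest to the left.

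Promoter sequence was available for 34 of the 43 members, 250 bases before to 50 after each start, from RefSeq on GRCh38.p14. The members without an entry were ATP6V0E1, ATP6V1A, ATP6V1B2, ATP6V1C1, ATP6V1H, RRAGA, RRAGD, MLST8 and AKT1S1. The E-box CACGTG, which reads the same on both strands, occurred in 11 of the 34 (32.4%), in 12.4% of the 10727 tested genes with a window and in 8.77% of all 27305 genes with a window. It was present in 4 of 12 pump genes and 7 of 22 sensing genes, and in 2 of 6 members called higher, 5 of 11 called lower and 4 of 17 not called, so genes holding it are found in both directions. The longer CLEAR core, the E-box with GT before it and AC after it, was found in 2 of the 34 members (ATP6V1G1 and RRAGB) and in 0.895% of the tested genes. A match describes the letters and does not show binding. The stretches below are the E-boxes of members called in Rho0, and 1 of RRAGB for its CLEAR core, with the E-box in capitals and 12 bases on each side.
ATP6V0B, chr1:43974891-43974920, plus strand: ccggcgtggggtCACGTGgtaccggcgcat
ATP6V0B, chr1:43974909-43974938, plus strand: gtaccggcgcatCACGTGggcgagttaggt
ATP6V0D1, chr16:67481199-67481228, minus strand: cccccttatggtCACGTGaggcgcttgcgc
ATP6V0E2, chr7:149872884-149872913, plus strand: tcccttctgcatCACGTGgggactgcgcct
ATP6V1G1, chr9:114587699-114587728, plus strand: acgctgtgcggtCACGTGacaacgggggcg
LAMTOR1, chr11:72103445-72103474, minus strand: ctttccccgcatCACGTGcttgcgtgtacg
LAMTOR4, chr7:100148892-100148921, plus strand: agcggctgcaagCACGTGaccggggcctga
FNIP1, chr5:131797175-131797204, minus strand: ccccgcccctgcCACGTGacgggacccgcc
FNIP1, chr5:131797094-131797123, minus strand: tccgcgcgccgcCACGTGatgcggcccccc
RRAGB, chrX:55717712-55717741, plus strand: ggtagcggcagtCACGTGacagactccggg
The 5 members whose windows held the motif and that fell are ATP6V0B, ATP6V0D1, ATP6V0E2, LAMTOR1 and LAMTOR4, and the 2 that rose are ATP6V1G1 and FNIP1. ATP6V0B and FNIP1 each held 2 copies and RRAGB 3. In the stretches printed for called members the E-box began between 14 bases (LAMTOR4) and 175 bases (FNIP1) before the start of the gene.

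In the V0 sector 3 of 7 genes fell and 1 rose (25.4% and 29.0% of all genes tested). With scaling by library size alone ATP6V0E2 was the only gene of the 17 still called lower. ATP6V0D1, ATP6V1F and ATP6V0B were then at -0.20, -0.06 and -0.05 and were not called. When library size left out mitochondrial genes, these genes were called lower, at -0.49, -0.36 and -0.34 (edgeR adjusted p = 0.0052, 0.011 and 0.0032). ATP6V0E2 (chromosome 7, 149872968 to 149891204 on GRCh38), an isoform of the small membrane subunit e, had 54.3, 58.3, 64.2 and 56.3 CPM in parental replicates 1 to 4 and 42.7, 37.3, 34.8 and 28.2 CPM in Rho0. All Rho0 libraries lay below all parental ones (log2 change -0.71 with an SE of 0.12, edgeR adjusted p = 5.0e-04), and it was the only pump gene called lower under each of the 20 alternatives (other scalings, filters, tests and libraries left out). Its paralogue ATP6V0E1 had 54.1, 57.3, 56.5 and 57.9 CPM in parental replicates 1 to 4 and 66.0, 59.4, 59.1 and 57.5 CPM in Rho0. The groups overlapped and the gene was not called (0.10, edgeR adjusted p = 0.237). ATP6V0D1, the d subunit that couples the rotor of V1 to the membrane ring, had 121, 133, 141 and 115 CPM in parental replicates 1 to 4 and 103, 92.7, 80.9 and 63.2 CPM in Rho0. It was lower in each Rho0 library (log2 change -0.59 with an SE of 0.14, edgeR adjusted p = 0.0042), and Rho0 replicate 4 was the lowest, without which the log2 change was -0.47. ATP6V0B, a proteolipid of the proton-carrying ring, had 29.0, 31.4, 31.3 and 29.7 CPM in parental replicates 1 to 4 and 25.7, 22.1, 21.6 and 20.2 CPM in Rho0. It fell with no overlap (log2 change -0.44 with an SE of 0.09, edgeR adjusted p = 0.0015).

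The main proteolipid of the ring, ATP6V0C, had 206, 218, 275 and 186 CPM in parental replicates 1 to 4 and 278, 235, 227 and 149.7 CPM in Rho0. Its Rho0 values spread from below to above the whole parental range, with means of 221 ± 38.3 and 223 ± 53.5 CPM (SD, n = 4 each), and the gene was not called (log2 change 0.01, edgeR adjusted p = 0.973, and 0.15 without Rho0 replicate 4). The a subunit, which lines the proton path and directs the pump to its compartment, is encoded by several genes. ATP6V0A2 had 22.8, 20.2, 20.8 and 19.3 CPM in parental replicates 1 to 4 and 23.8, 24.1, 23.0 and 26.6 CPM in Rho0. It rose by a small margin with no overlap (log2 change 0.23 with an SE of 0.08, edgeR adjusted p = 0.034), a call kept in 10 of 20 alternatives and lost without parental replicate 2, 3 or 4 or Rho0 replicate 2, 3 or 4 (edgeR adjusted p = 0.053 to 0.108). ATP6V0A1 had 92.8, 88.1, 99.9 and 81.9 CPM in parental replicates 1 to 4 and 87.3, 87.7, 83.9 and 67.7 CPM in Rho0. It was not called (-0.15, edgeR adjusted p = 0.210), and Rho0 replicate 4 alone lay well below the other libraries, with -0.08 without it. Per kilobase of median coding transcript, the level of ATP6V0A1 was 50.9 CPM and that of ATP6V0A2 12.0 CPM in the parental line, and 45.9 and 14.1 CPM in Rho0.

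In the V1 sector 2 of 8 genes rose and 1 fell (29.0% and 25.4% of all genes tested). ATP6V1B2, the widely expressed isoform of the nucleotide-binding B subunit, had 37.1, 38.8, 38.2 and 37.7 CPM in parental replicates 1 to 4 and 48.6, 52.9, 52.6 and 48.3 CPM in Rho0. Its parental libraries were close together and all Rho0 libraries lay above them (log2 change 0.41 with an SE of 0.07, edgeR adjusted p = 3.5e-04), a call kept in all 20 alternatives. ATP6V1G1, a subunit of the outer stalks, had 64.6, 66.4, 63.1 and 67.5 CPM in parental replicates 1 to 4 and 75.8, 69.3, 84.1 and 79.3 CPM in Rho0. It rose (log2 change 0.24 with an SE of 0.07, edgeR adjusted p = 0.018), with no overlap, a call that was lost without parental replicate 1 or 3 or Rho0 replicate 3 (edgeR adjusted p = 0.053 to 0.087). ATP6V1F, of the central stalk, had 74.9, 82.4, 87.8 and 75.6 CPM in parental replicates 1 to 4 and 67.9, 62.7, 58.7 and 45.2 CPM in Rho0. It fell with no overlap (log2 change -0.45 with an SE of 0.12, edgeR adjusted p = 0.0076), with Rho0 replicate 4 the lowest and a log2 change of -0.35 without it.

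The other 5 V1 genes were not called. ATP6V1A, the catalytic subunit that hydrolyses ATP, had 47.7, 48.1, 45.0 and 50.1 CPM in parental replicates 1 to 4 and 44.3, 47.3, 47.5 and 60.3 CPM in Rho0. Only Rho0 replicate 4 stood above the rest (log2 change 0.06, edgeR adjusted p = 0.607). ATP6V1C1, which links the stalks, had 31.4, 32.7, 33.1 and 36.4 CPM in parental replicates 1 to 4 and 33.5, 37.0, 39.8 and 46.0 CPM in Rho0. Its groups overlapped (0.23, edgeR adjusted p = 0.078). Its log2 change was 0.13 without Rho0 replicate 4 and 0.04 after correction for transcript length and GC content, and it was called at 0.27 without Rho0 replicate 1 (edgeR adjusted p = 0.020). ATP6V1D, of the central stalk, had 29.3, 35.3, 29.6 and 36.6 CPM in parental replicates 1 to 4 and 31.1, 30.0, 33.7 and 32.5 CPM in Rho0 (-0.04, edgeR adjusted p = 0.745). The outer-stalk gene ATP6V1E1 had 28.9, 30.4, 26.3 and 30.2 CPM in parental replicates 1 to 4 and 29.0, 29.3, 29.6 and 29.4 CPM in Rho0 (0.02, edgeR adjusted p = 0.846). In both genes the Rho0 libraries lay inside the parental range. ATP6V1H, the regulatory subunit, had 26.9, 30.2, 27.8 and 28.6 CPM in parental replicates 1 to 4 and 30.4, 27.3, 27.2 and 26.9 CPM in Rho0 (-0.02, edgeR adjusted p = 0.830). The accessory proteins help to assemble and sort the pump. ATP6AP1 had 155 ± 9.71 and 137 ± 17.2 CPM (log2 change -0.19, edgeR adjusted p = 0.124) and ATP6AP2, the prorenin receptor, 51.4 ± 1.87 and 61.3 ± 9.32 CPM (0.26, edgeR adjusted p = 0.053; SD, n = 4 each). Without Rho0 replicate 4 these were -0.12 and 0.13. Without Rho0 replicate 1 both were called, at -0.26 and 0.29 (edgeR adjusted p = 0.040 and 0.018).

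The pump genes that fell and those that rose also differed in base composition. The 4 that fell had transcripts with 55.6% to 61.9% G and C (median over GENCODE 29 transcripts) and the 3 that rose 45.1% to 50.5%. The 10 not called spanned both ranges, from 38.7% to 65.1%. After each library was corrected for transcript length and GC content, the same 4 remained lower, at -0.62 for ATP6V0E2, -0.45 for ATP6V0D1, -0.33 for ATP6V1F and -0.27 for ATP6V0B. ATP6V1B2, ATP6V1G1 and ATP6V0A2 remained higher, at 0.44, 0.29 and 0.18, and ATP6AP2 was called as well (0.13). In the sensing genes the ranges of those that rose (39.8% to 57.7%) and fell (44.2% to 59.8%) overlapped.

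**Figure D2:**
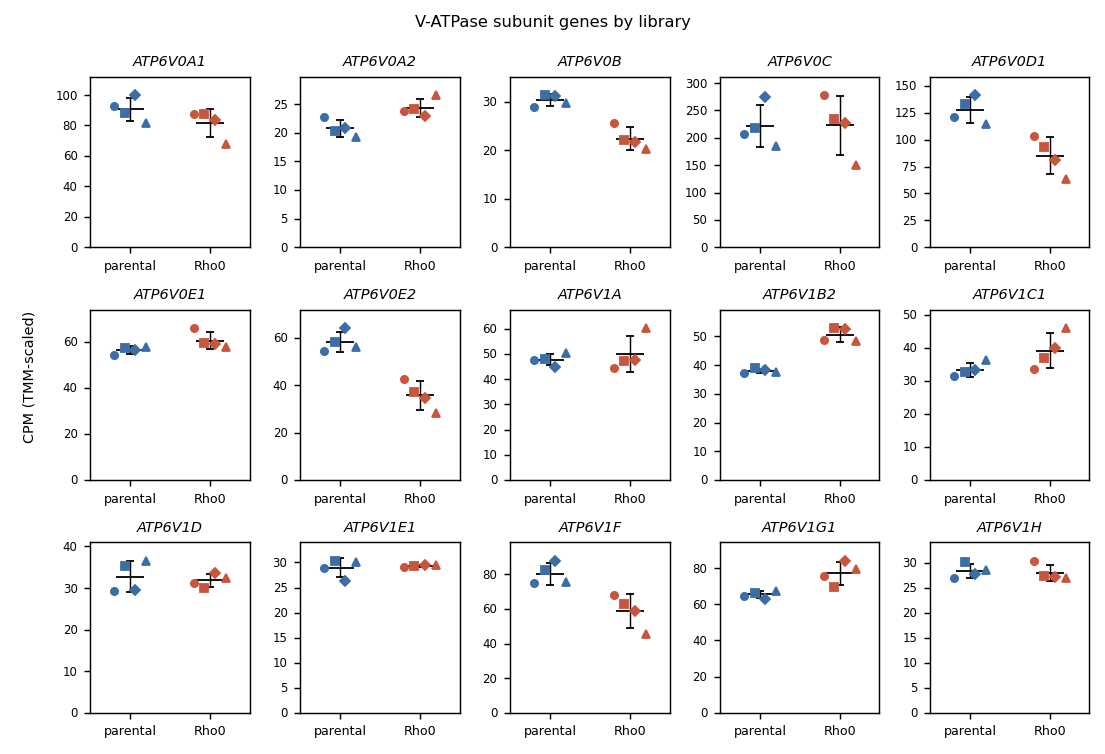
CPM of the 15 V0 and V1 subunit genes in each library, TMM-scaled, with the mean (line) and SD (bar) of each line. Circles, squares, diamonds and triangles are replicates 1 to 4. Rho0 lies below parental in every library for ATP6V0B, ATP6V0D1, ATP6V0E2 and ATP6V1F, and above it for ATP6V0A2, ATP6V1B2 and ATP6V1G1.

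Ragulator, the scaffold that ties the Rag GTPases to the lysosome, had 3 of 5 genes lower and 0 higher (25.4% and 29.0% of all genes tested). None of the 3 was called lower with scaling by library size alone. When that size left out mitochondrial genes, LAMTOR1 and LAMTOR5 were called lower, at -0.49 and -0.36 (edgeR adjusted p = 0.0018 and 0.0014). LAMTOR4 was then not called (-0.28, edgeR adjusted p = 0.063). LAMTOR1 (chromosome 11, 72085895 to 72103387), whose lipid anchor holds the complex in the membrane, had 107, 121, 139.6 and 113 CPM in parental replicates 1 to 4 and 90.6, 84.8, 82.2 and 63.2 CPM in Rho0. Every Rho0 library was below every parental one (log2 change -0.59 with an SE of 0.12, edgeR adjusted p = 0.0018). LAMTOR5 had 29.7, 29.5, 30.1 and 31.7 CPM in parental replicates 1 to 4 and 23.2, 21.2, 22.5 and 21.1 CPM in Rho0. The ranges of the lines were narrow and apart (log2 change -0.46 with an SE of 0.07, edgeR adjusted p = 2.5e-04). LAMTOR4 went from 22.6 ± 1.52 to 17.5 ± 2.89 CPM (mean ± SD, n = 4 each), with a log2 change of -0.37 with an SE of 0.12, edgeR adjusted p = 0.021, with Rho0 replicate 1 inside the parental range. Its call was lost after the length and GC correction (-0.20, edgeR adjusted p = 0.074) and without parental replicate 4 or Rho0 replicate 3 (edgeR adjusted p = 0.057 to 0.068). LAMTOR2 and LAMTOR3 had log2 changes of -0.00 and -0.01 (edgeR adjusted p = 0.975 and 0.977), and LAMTOR3 was at -0.20 without Rho0 replicate 4.

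Of the Rag GTPases, RRAGA, which pairs with RagC or RagD and recruits mTORC1 when bound to GTP, fell from 37.3 ± 1.43 to 29.2 ± 2.33 CPM (mean ± SD, n = 4 each) with no overlap between the lines. The change (log2 change -0.36 with an SE of 0.08, edgeR adjusted p = 0.0027) was 0.03 with scaling by library size alone. When that size left out mitochondrial genes, RRAGA was still called lower, at -0.26 (edgeR adjusted p = 0.0073). Its close relative RRAGB had 21.1 ± 1.91 and 19.6 ± 2.01 CPM and was not called (-0.10, edgeR adjusted p = 0.398, and -0.18 without Rho0 replicate 4), nor was RRAGC at 26.4 ± 1.39 and 27.1 ± 0.956 CPM (0.04, edgeR adjusted p = 0.669). RRAGD was close to silent in both lines and failed the filter, with 14 counts in all parental and 19 in all Rho0 libraries, or 0.138 to 0.206 and 0.0753 to 0.203 CPM. No difference in RRAGD was detectable at this depth.

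In the folliculin complex FLCN and 1 partner rose and the other partner fell. FLCN (chromosome 17, 17212212 to 17237188), which turns on the GTPase activity of RagC and RagD, had 19.3, 18.0, 17.5 and 19.0 CPM in parental replicates 1 to 4 and 31.2, 29.7, 29.0 and 32.0 CPM in Rho0. The lines were far apart relative to their spread (log2 change 0.73 with an SE of 0.07, edgeR adjusted p = 1.3e-05), and the call was kept in all 20 alternatives. FNIP1 (chromosome 5, 131641714 to 131797063), its partner, had 30.6, 30.4, 29.1 and 33.4 CPM in parental replicates 1 to 4 and 36.9, 45.5, 50.3 and 58.4 CPM in Rho0. It rose in each Rho0 library (log2 change 0.63 with an SE of 0.13, edgeR adjusted p = 0.0016), most in replicate 4, and was at 0.51 without that library and at 0.32 after the length and GC correction, still called in both. FNIP2 (chromosome 4, 158769138 to 158908049), the alternative partner, had 22.2, 19.6, 20.5 and 23.0 CPM in parental replicates 1 to 4 and 10.8, 14.6, 13.4 and 19.3 CPM in Rho0. It fell with no overlap (log2 change -0.55 with an SE of 0.16, edgeR adjusted p = 0.012), with Rho0 replicate 4 closest to the parental range and a log2 change of -0.75 without it. The call of FNIP2 was lost with scaling by library size alone (-0.16, edgeR adjusted p = 0.467) and by library size without mitochondrial genes (-0.45, edgeR adjusted p = 0.054). FLCN overlaps MPRIP on the other strand, which had 116 CPM in parental and 161 CPM in Rho0 libraries. The kit keeps strand, but the sources used here do not say whether the counting used it, so the reads of these genes may be mixed.

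SLC38A9 (chromosome 5, 55625845 to 55773194), a lysosomal transporter through which arginine inside the lysosome is signalled to the Rags, had 9.35, 9.30, 9.07 and 10.5 CPM in parental replicates 1 to 4 and 13.3, 13.5, 15.7 and 19.2 CPM in Rho0. It rose in every Rho0 library (log2 change 0.70 with an SE of 0.13, edgeR adjusted p = 9.0e-04), and in all 20 alternatives, with 0.56 without Rho0 replicate 4. GATOR1, which opposes the Rags when amino acids are short, had 0 of 3 genes called. NPRL2 was at 12.3 ± 0.722 and 12.6 ± 0.753 CPM (0.03, edgeR adjusted p = 0.773), NPRL3 at 182 ± 19.9 and 145 ± 27.4 CPM (-0.33, edgeR adjusted p = 0.065) and DEPDC5 at 15.5 ± 1.03 and 13.5 ± 1.27 CPM (-0.20, edgeR adjusted p = 0.10; SD, n = 4 each). NPRL3 was called lower in 4 of 20 alternatives, among them the fit without Rho0 replicate 1 (-0.43, edgeR adjusted p = 0.023). It was at -0.20 without Rho0 replicate 4. DEPDC5 was called lower after the length and GC correction (-0.23, edgeR adjusted p = 0.043).

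Within mTORC1 the scaffold subunit and the kinase moved in opposite directions. RPTOR (chromosome 17, 80544819 to 80966371), which binds substrates and the Rags, had 48.8, 48.3, 56.3 and 51.2 CPM in parental replicates 1 to 4 and 89.6, 94.5, 87.7 and 82.5 CPM in Rho0. This was the largest rise of the 42 members (log2 change 0.79 with an SE of 0.08, edgeR adjusted p = 8.5e-06) and was kept in all 20 alternatives. MTOR (chromosome 1, 11106535 to 11262507), the kinase, had 81.6, 81.8, 83.7 and 81.8 CPM in parental replicates 1 to 4 and 56.5, 69.2, 74.6 and 76.6 CPM in Rho0. All Rho0 libraries lay below the parental ones, replicate 1 the lowest, and the fall was small (log2 change -0.25 with an SE of 0.09, edgeR adjusted p = 0.042). It was called in 11 of 20 alternatives but not without parental replicate 1, 2, 3 or 4 or Rho0 replicate 2 (edgeR adjusted p = 0.052 to 0.083). With scaling by library size alone it was 0.15. MLST8, a subunit shared with mTORC2, had 65.8, 69.4, 74.0 and 62.6 CPM in parental replicates 1 to 4 and 84.2, 77.7, 66.5 and 50.5 CPM in Rho0. AKT1S1, the inhibitory subunit PRAS40, had 191, 207, 251 and 184 CPM in parental replicates 1 to 4 and 292, 257, 264 and 174 CPM in Rho0. In both genes Rho0 replicate 4 was below every parental library and replicates 1 and 2 above, and neither was called (0.04, edgeR adjusted p = 0.851, and 0.24, edgeR adjusted p = 0.200). Without Rho0 replicate 4, MLST8 was at 0.16 and AKT1S1 was called at 0.37 (edgeR adjusted p = 0.0069), as it was after the length and GC correction (0.28, edgeR adjusted p = 0.030).

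RHEB, the GTPase that activates mTORC1, fell from 107 ± 6.79 to 87.2 ± 4.79 CPM (mean ± SD, n = 4 each) with no overlap and a log2 change of -0.30 with an SE of 0.07, edgeR adjusted p = 0.0049. The log2 change was 0.09 with scaling by library size alone. When that size left out mitochondrial genes, RHEB was called lower, at -0.20 (edgeR adjusted p = 0.017). The annotated processed copies of RHEB held 2.36% and 2.29% as many counts as the gene. TSC1 and TSC2, which together turn RHEB off, had 55.7 ± 2.32 and 58.0 ± 4.34 CPM (0.06, edgeR adjusted p = 0.530) and 207 ± 15.4 and 227 ± 24.3 CPM (0.13, edgeR adjusted p = 0.250). TSC2 was called without Rho0 replicate 4, at 0.19 (edgeR adjusted p = 0.034), and after the length and GC correction, at 0.16 (edgeR adjusted p = 0.020).

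Of the transcription factors, TFE3 was the most abundant in both lines. Per kilobase of median coding transcript, levels in the parental line were 36.4 CPM for TFE3, 1.79 for TFEB and 0.518 for MITF, and in Rho0 28.6, 2.17 and 0.758 CPM. The order was the same with the longest coding transcript. TFE3 (chromosome X, 49028726 to 49043486) had 123, 122, 137 and 114 CPM in parental replicates 1 to 4 and 111, 101, 96.3 and 82.5 CPM in Rho0. It fell with no overlap (log2 change -0.35 with an SE of 0.10, edgeR adjusted p = 0.011). The log2 change was -0.18 after the length and GC correction, and 0.04, with no call, under scaling by library size alone. When that size left out mitochondrial genes, TFE3 was called lower, at -0.25 (edgeR adjusted p = 0.018). TFEB had 2.02, 2.70, 2.52 and 2.23 CPM in parental replicates 1 to 4 and 3.14, 3.09, 2.83 and 2.43 CPM in Rho0. Rho0 replicate 4 lay inside the parental range and the gene was not called (0.27, edgeR adjusted p = 0.166), and after the length and GC correction it was called at 0.42. MITF had 0.779, 0.914, 0.979 and 1.25 CPM in parental replicates 1 to 4 and 1.37, 1.13, 1.24 and 2.00 CPM in Rho0. Rho0 replicates 1 and 4 lay above the parental range and replicates 2 and 3 inside it (0.59, edgeR adjusted p = 0.059), and the log2 change without Rho0 replicate 4 was 0.36. Without parental replicate 4 it was called at 0.72 (edgeR adjusted p = 0.044).

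**Figure D3:**
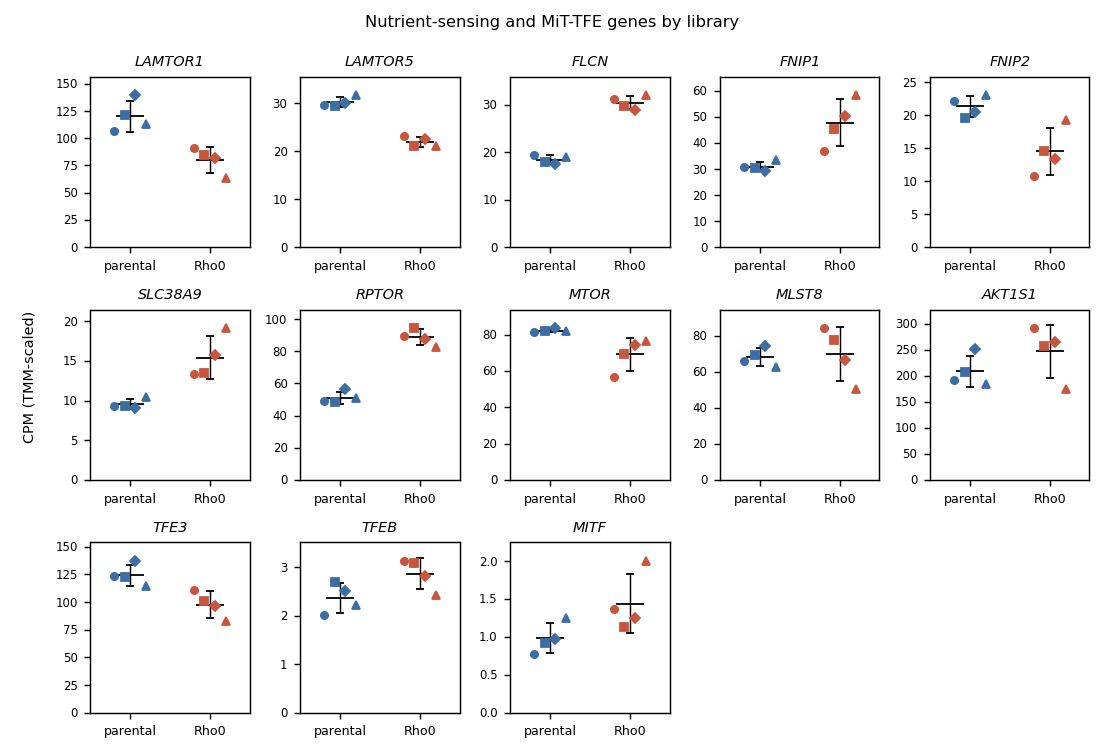
CPM of 13 nutrient-sensing and MiT-TFE genes in each library, TMM-scaled, with the mean (line) and SD (bar) of each line. Circles, squares, diamonds and triangles are replicates 1 to 4. FLCN, FNIP1, SLC38A9 and RPTOR are higher in every Rho0 library, LAMTOR1, LAMTOR5, FNIP2, MTOR and TFE3 are lower, and the lines overlap for MLST8, AKT1S1, TFEB and MITF.

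The ratio of related genes within a library does not depend on how libraries are scaled, so 9 such ratios of estimated counts were compared, as log2 with 1 count added. FNIP1 over FNIP2 was 0.46, 0.63, 0.50 and 0.53 in parental replicates 1 to 4 and 1.77, 1.63, 1.91 and 1.59 in Rho0. Every Rho0 library was higher, by 2.29-fold on average, the widest shift of the 9 ratios. ATP6V0E1 over ATP6V0E2 was -0.01, -0.02, -0.18 and 0.04 in parental and 0.63, 0.67, 0.76 and 1.03 in Rho0 libraries, again with no overlap (1.76-fold). The mean of TFE3 over TFEB was lower in Rho0, from 5.69 ± 0.18 to 5.07 ± 0.05 (SD, n = 4 each), as was that of TFE3 over MITF, from 6.93 ± 0.33 to 6.06 ± 0.48. In both the lines did not overlap. ATP6V0A1 over ATP6V0A2 went from 2.12 ± 0.10 to 1.74 ± 0.26, and Rho0 replicate 4 lay well below the other libraries. These 5 ratios each had the smallest two-sided exact permutation p that 70 arrangements allow (0.0286), which over 9 ratios gives a Benjamini-Hochberg adjusted p of 0.051, just above 0.05. The lines overlapped for the other 4. The differences in log2 were -0.43 for ATP6AP1 over ATP6AP2 (exact permutation p = 0.057), -0.25 for RRAGA over RRAGB (0.114), 0.17 for RRAGC over RRAGD (0.343) and -0.07 for TSC1 over TSC2 (0.629). Without Rho0 replicate 4 the differences that moved by over 1.5 times were -0.26 for ATP6V0A1 over ATP6V0A2, -0.25 for ATP6AP1 over ATP6AP2, -0.13 for RRAGA over RRAGB and -0.18 for TSC1 over TSC2.

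**Figure D4:**
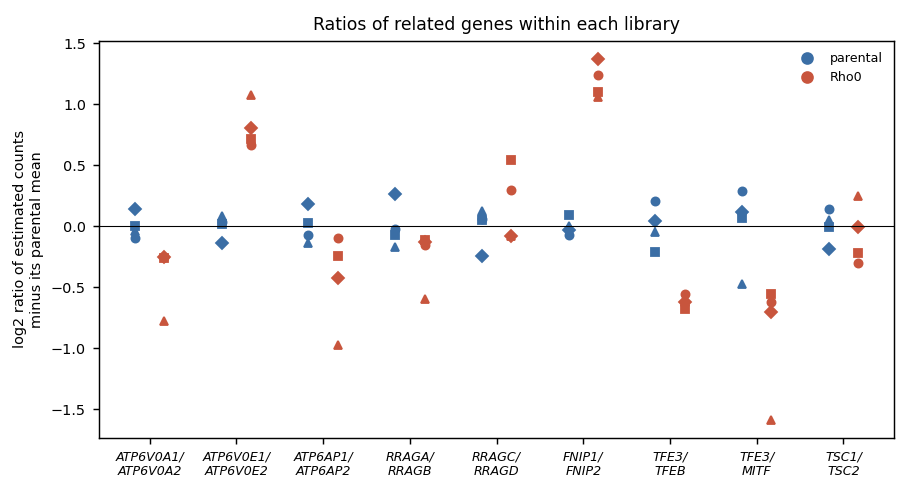
Log2 ratio of the estimated counts of 2 related genes in each library, minus the mean of the parental libraries, for 9 ratios. Circles, squares, diamonds and triangles are replicates 1 to 4, and FNIP1/FNIP2 and ATP6V0E1/ATP6V0E2 are shifted up and TFE3/TFEB and TFE3/MITF down in every Rho0 library.

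The rest of the pathway was read from 60 further genes in 7 lists, of which 56 were tested, 18 rose and 10 fell (background 29.0% and 25.4%). The count that rose was 11 without parental replicate 4, and with scaling by library size alone 38 were higher and 3 lower. Transporters and scaffolds of the lysosome that feed mTORC1 had 7 of 10 genes higher and 1 lower, with a median log2 change of 0.45. Leaving out 1 library at a time gave 5 to 7 higher. The lists were chosen with earlier results of these data known, so this share is no independent test. LAPTM4B, a lysosomal membrane protein known to bring the leucine carrier to lysosomes, was almost silent in the parental line (5 counts in 4 libraries, 0.0544 ± 0.0410 CPM) and had 10.7, 8.58, 8.18 and 7.93 CPM in Rho0. The size of the rise (log2 change 7.17, edgeR adjusted p = 1.8e-08) rests on those 5 counts and on how a near-zero level is treated, and was 3.25 by limma on the deposited log2 table. SLC7A5, the light chain of that carrier, had 25.5, 26.4, 31.8 and 27.3 CPM in parental replicates 1 to 4 and 70.3, 75.2, 71.2 and 57.4 CPM in Rho0. It rose 2.47-fold (log2 change 1.30 with an SE of 0.10, edgeR adjusted p = 2.2e-06). The proton-coupled amino acid exporter gene SLC36A1 rose 1.65-fold, from 12.2 ± 0.808 to 20.2 ± 1.70 CPM. All of these were called under each of the 20 alternatives.

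Substrates of mTORC1 divided, with 4 of 8 higher and 3 lower (2 higher without parental replicate 1 or 2 or Rho0 replicate 3). Of all genes tested 29.0% were higher and 25.4% lower, the background for this list and for those below. EIF4EBP2, a repressor of cap-dependent translation, fell from 159 ± 10.9 to 83.3 ± 1.86 CPM (mean ± SD, n = 4 each, log2 change -0.93 with an SE of 0.07, edgeR adjusted p = 1.2e-06), and RPS6KB2, one of the S6 kinases, from 52.5 ± 2.85 to 31.5 ± 4.63 CPM (log2 change -0.74 with an SE of 0.10, edgeR adjusted p = 1.5e-04). LARP1, which binds mRNAs of the translation machinery, had 156 ± 12.9 in parental and 244 ± 16.7 CPM in Rho0, a rise (log2 change 0.65 with an SE of 0.08, edgeR adjusted p = 6.2e-05). Cytosolic amino acid sensors had 0 of 5 tested genes higher and 2 lower, against 2 higher and 0 lower with scaling by library size alone. These were the arginine sensor CASTOR1, from 8.79 ± 0.543 to 5.83 ± 1.08 CPM (log2 change -0.60, edgeR adjusted p = 0.0032), and the sestrin gene SESN1 (log2 change -0.33, edgeR adjusted p = 0.021), which was not called without parental replicate 2 or 4 (edgeR adjusted p = 0.051 to 0.070). In GATOR2, which restrains GATOR1, and KICSTOR, which holds it at the lysosome, 2 of 9 rose and 1 fell. SEC13 (0.32, edgeR adjusted p = 0.016) was not called without parental replicate 4 or Rho0 replicate 1, 2 or 3 (edgeR adjusted p = 0.052 to 0.068). WDR24 (0.28, edgeR adjusted p = 0.039) lost it without parental replicate 1, 2, 3 or 4 or Rho0 replicate 1, 2 or 3 (edgeR adjusted p = 0.054 to 0.150), and WDR59, the gene that fell (-0.27, edgeR adjusted p = 0.018), without parental replicate 3 (edgeR adjusted p = 0.054).

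Pump genes outside the 17 were also mixed. Among 8 tested further subunit genes 2 rose and 0 fell (29.0% and 25.4% of all genes tested). The most abundant, RNASEK, had 196 ± 17.1 and 166 ± 32.8 CPM and was not called (-0.24, edgeR adjusted p = 0.136). Without Rho0 replicate 1 it was called lower (-0.39, edgeR adjusted p = 0.011). ATP6V1E2, an isoform best known from testis, had 3.75 ± 0.147 CPM in parental and 6.66 ± 0.617 CPM in Rho0 libraries and rose (log2 change 0.83 with an SE of 0.11, edgeR adjusted p = 9.3e-05). TCIRG1, the a-subunit isoform best known from osteoclasts, was not called (84.4 ± 3.49 and 90.6 ± 9.44 CPM; 0.10, edgeR adjusted p = 0.336). ATP6V0A4, ATP6V1B1 and ATP6V0D2, isoforms of more restricted expression, were low, with means in parental and Rho0 of 1.34 and 1.63 CPM for ATP6V0A4, 0.798 and 0.660 CPM for ATP6V1B1 and 0.716 and 1.43 CPM for ATP6V0D2, the last of which was called higher (edgeR adjusted p = 0.046) but not without parental replicate 1, 3 or 4 or Rho0 replicate 2 or 4 (edgeR adjusted p = 0.079 to 0.113). A further list held assembly factors, subunits of RAVE, which rejoins the sectors of the pump, and other genes such as NCOA7 and MEAK7. Of its 11 tested genes 3 were higher and 1 lower (29.0% and 25.4% of all genes tested), and 5 were higher without Rho0 replicate 1. NCOA7 had 19.5 ± 0.213 and 30.2 ± 6.79 CPM (a rise, log2 change 0.64 with an SE of 0.14, edgeR adjusted p = 0.0029) and ROGDI, a RAVE subunit, 10.2 ± 1.16 and 14.6 ± 2.27 CPM (also a rise, log2 change 0.52 with an SE of 0.13, edgeR adjusted p = 0.0061). DMXL1, another RAVE subunit, had 14.3, 14.4, 11.6 and 15.3 CPM in parental replicates 1 to 4 and 13.3, 17.5, 22.3 and 33.5 CPM in Rho0. It was called higher (0.65, edgeR adjusted p = 0.042) with the lines overlapping. The call was lost without parental replicate 1, 2, 3 or 4 or Rho0 replicate 3 or 4 (edgeR adjusted p = 0.064 to 0.111), and the log2 change was 0.33 without Rho0 replicate 4. The gene that fell was MEAK7 (-0.35, edgeR adjusted p = 0.0014), which was 0.04 with scaling by library size alone. When that size left out mitochondrial genes, MEAK7 was called lower, at -0.25 (edgeR adjusted p = 0.0087). TMEM9 was listed at 0 in every library, and whether the gene is silent or was missed by the counting was not tested.

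**Figure D5:**
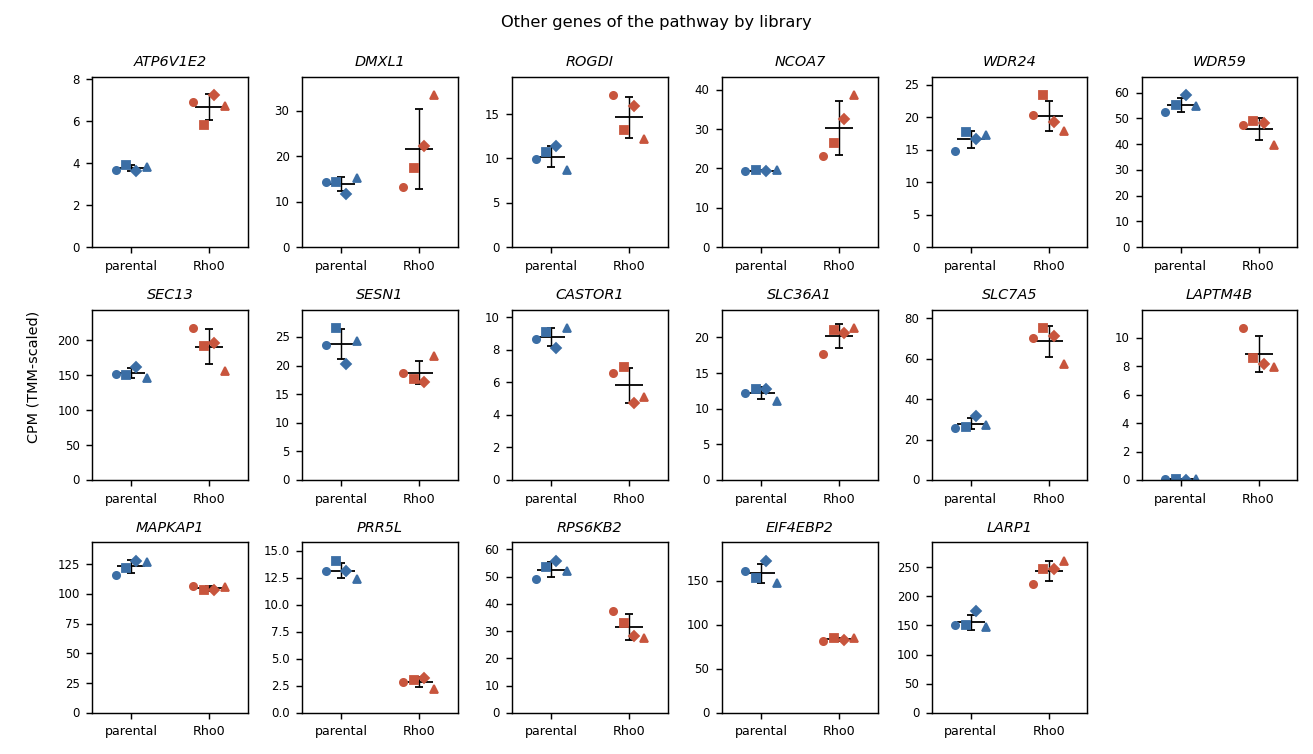
CPM of 17 further genes of the pathway in each library, TMM-scaled, with the mean (line) and SD (bar) of each line. Circles, squares, diamonds and triangles are replicates 1 to 4. LAPTM4B is near 0 in the parental line and at 7.93 to 10.7 CPM in Rho0, and the lines overlap for DMXL1, SEC13 and SESN1.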

How the data were processed

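The 8 libraries (4 parental, 4 Rho0) were made with a strand-specific poly(A) kit from 2 ng of total RNA (per the labels). A table of estimated counts per gene and a log2 table of 12885 genes were deposited by the authors. Tools named in the submitters' processing notes, with no versions or roles, are kallisto, edgeR and limma, and the build is GRCh38. Among the deposited values 35.7% of estimated counts were not whole, and all were rounded. Totals ran from 11721448 to 37203313, which limits the precision of low genes such as RRAGD. Genes were named from the reference tables (34284 of 38010 IDs). IDs without a name held 1.43% to 1.75% of the counts.

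Rho0 was compared with parental by the quasi-likelihood test of edgeR 4.0.16 in R 4.3.3, with TMM scaling and the filterByExpr filter at 10 counts, adjusted by Benjamini-Hochberg over 15184 genes and called at 0.05. Biological variation between replicates was 13.7% (coefficient of variation). On simulated counts for this comparison (15035 genes) the test recovered 58% of changes of 1.5-fold and 100% of those of 2-fold or more, with 14 false among 193 calls. The simulation changed 50 well-counted genes at each fold and gave every gene the same dispersion. In the data 54.4% of genes were called, so these shares need not carry over. Alternatives were DESeq2 1.42.0, limma 3.58.1, other scalings and filters, a replicate block, a fit corrected for GC and length of transcripts (93.7% of genes had both) and leaving out each library. Related genes were compared as log2 ratios with a two-sided exact permutation test. Lengths and coordinates are from GENCODE 29 and promoters from RefSeq. All 43 members were accounted for. Values in every library were given for members called with a log2 change of at least 0.4 in size, for complexes whose called members went both ways and for TFEB, TFE3 and MITF, and in each further list up to 3 called genes with the largest change and at least 5 CPM were named. TCIRG1, RNASEK, ATP6V0A4, ATP6V1B1, ATP6V0D2 and TMEM9 were named after their values were seen. The members and lists were chosen with earlier results of these data known. Replicates differed by more than sampling noise (lowest chi-square per degree of freedom 4.21).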

Additional observations from a re-analysis of the deposited data

Results flagged for a closer look

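Of 138 groups of 4 libraries examined, 7 held a library whose gap to its nearest neighbour passed Dixon's critical value. About 1 in 20 such groups passes by chance. ATP6V1H had 30.4 CPM in Rho0 replicate 1, above the other Rho0 libraries at 26.9 to 27.3 CPM. MTOR had 83.7 CPM in parental replicate 3, above 81.6 to 81.8 CPM in the others. Rho0 replicate 4 stood apart in 3 log2 ratios, with 1.35 for ATP6V0A1 over ATP6V0A2, 0.22 for RRAGA over RRAGB and 5.34 for TFE3 over MITF, each the lowest of its group. It was also low for WDR59 at 39.6 CPM. LARP1 had 175 CPM in parental replicate 3, the highest parental value of that gene.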

How the results depend on the processing

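Scaling by library size alone turned the most values. With it 8572 genes were called higher and 1540 lower, 14 pump genes were called (13 higher, 1 lower), and 13 sensing genes were higher and 0 lower. Log2 changes that turned positive were 0.24 for ATP6V0A1, 0.35 for ATP6V1D, 0.37 for ATP6V1H, 0.21 for ATP6AP1, 0.38 for LAMTOR2, 0.011 for LAMTOR4, 0.034 for RRAGA, 0.15 for MTOR, 0.095 for RHEB, 0.044 for TFE3, 0.38 for LAMTOR3, 0.28 for RRAGB, 0.066 for NPRL3 and 0.19 for DEPDC5. With library size without mitochondrial genes 6 pump genes were higher, and 7 sensing genes were higher and 5 lower. After the length and GC correction 7 sensing genes were higher. Leaving out 1 library at a time gave 1 to 5 pump genes higher and 4 to 6 sensing genes higher. Deviations from the group means of same-numbered libraries had correlations of -0.13, 0.04, 0.00 and 0.16. Parental replicates 2 and 4 but not 1 and 3 correlated best with their own number. With 4 libraries per line this cannot settle whether same-numbered cultures were paired. With the replicate as a block 4215 genes were higher and 3802 lower, with 7 pump and 13 sensing genes called. Low counts limit RRAGD, MITF and TFEB.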

Other observations

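A mixed list held the third subunit of the TSC complex, the inhibitor DEPTOR and subunits of mTORC2. Of its 5 tested genes 0 rose and 2 fell (29.0% and 25.4% of all genes tested), and both that fell encode subunits of mTORC2. PRR5L, a subunit that binds RICTOR, had 13.1, 14.1, 13.1 and 12.4 CPM in parental replicates 1 to 4 and 2.80, 3.01, 3.26 and 2.23 CPM in Rho0. It fell in every Rho0 library (log2 change -2.24 with an SE of 0.13, edgeR adjusted p = 1.6e-07) and under each of the 20 alternatives. MAPKAP1, the subunit SIN1, went from 123 ± 5.37 to 105 ± 1.92 CPM (mean ± SD, n = 4 each), with a log2 change of -0.23 with an SE of 0.06, edgeR adjusted p = 0.0079, and was 0.16 with scaling by library size alone. RICTOR, which defines mTORC2, had 48.3, 47.8, 37.3 and 49.9 CPM in parental replicates 1 to 4 and 22.8, 34.9, 37.8 and 59.3 CPM in Rho0. Its Rho0 values ran from below to above the parental range and it was not called (-0.24, edgeR adjusted p = 0.412). It was called lower without Rho0 replicate 4 (-0.55, edgeR adjusted p = 0.010) and after the length and GC correction (-0.46, edgeR adjusted p = 0.021). PRR5, a relative of PRR5L, had 0.748 ± 0.156 and 1.07 ± 0.272 CPM (0.46, edgeR adjusted p = 0.157) and was called higher without Rho0 replicate 4 (0.64, edgeR adjusted p = 0.046). DEPTOR failed the filter, with no more than 0.257 CPM in any library.

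Several members overlap another gene on the other strand. LAMTOR4 overlaps C7orf43, which had 19.6 CPM in parental and 15.6 CPM in Rho0 libraries. NPRL3 overlaps MPG, which had 205 and 149 CPM. The 7 annotated copies of ATP6V1G1 held 0.313% and 0.242% as many counts as the gene in parental and Rho0 libraries.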
